A study of Mus musculus with 13 samples.

Results

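The 10 genes studied here code for products known from macrophages. They are Adgre1, Cd68, Csf1r, Mrc1, Cd163, Itgam, C1qa, C1qb, Lyz2 and Trem2, picked by symbol from this known role, and they were followed across 3 muscles of mdm mice. All 10 were among the 17924 genes in the deposited tables and among the 17069 genes that passed a filter on low counts and were tested. The mdm mutation (muscular dystrophy with myositis) is a rearrangement with a LINE insertion in the titin gene, which removes part of titin at the N2A-PEVK region, and homozygous mice develop a progressive degeneration of skeletal muscle. RNA of whole muscles was sequenced from mdm EDL (extensor digitorum longus, 5 libraries), mdm psoas (5 libraries) and mdm soleus (3 libraries). The mice came from a colony of the strain B6C3Fe a/a-Ttn mdm/J. Every library used here carried the mdm genotype, the labels name no treatment, and the wild-type libraries of the study were not analysed here, so all comparisons are between muscles of mdm mice. The mice were 38, 38, 42, 38 and 38 days old for EDL replicates 1 to 5, 29, 38, 42, 38 and 38 days for psoas, and 33, 36 and 38 days for soleus. A sex was given for 6 of the 13 libraries. The labels also hold a code that they do not explain, which was T1 for EDL replicate 1, T3 for psoas replicate 1, T4 for replicates 2 of EDL and psoas and replicates 1 and 2 of soleus, T5 for replicates 3 of EDL and psoas, and T6 for the other 5 libraries.

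Macrophages are the phagocytes of a tissue. In damaged muscle, monocytes enter from the blood and become macrophages that clear dying fibres, while resident macrophages remain in the connective tissue between the fibres. Both depend on signals through the CSF1 receptor, and the transcription factor PU.1 switches on many genes of the lineage. Some of the 10 genes mark the cells on their surface or in their lysosomes: Adgre1 codes for F4/80, Cd68 for a lysosomal membrane glycoprotein and Itgam for CD11b, the alpha chain of the complement receptor CR3. Csf1r and Trem2 are receptors, for CSF1 and IL-34 and for lipids, respectively. Mrc1 (CD206, the mannose receptor) and Cd163 (which takes up haptoglobin-bound haemoglobin) are scavenger receptors often found on resident macrophages, C1qa and C1qb code for chains of C1q, which starts the classical complement pathway, and Lyz2 codes for lysozyme. None of these is expressed by muscle fibres as a main product, but some are shared with other myeloid cells, since neutrophils also carry Itgam and Lyz2. In RNA of whole muscle, fewer macrophages and less RNA of a gene per macrophage cannot be told apart.

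Promoter sequences (RefSeq, build GRCm38.p6, 250 bases before to 50 bases after the start of the gene) were matched by symbol for 7 of the 10 genes, namely C1qb, Cd163, Cd68, Itgam, Lyz2, Mrc1 and Trem2. The letters GAGGAA, the core of PU.1-type ETS sites (TTCCTC on the other strand), were found in 5 of the 7, against 28.1% of all 32544 promoters searched. They were absent from these windows of Cd163 and Lyz2. The AP-1 letters TGANTCA (read the same on both strands) were found in 2 of the 7, Cd68 and Trem2, against 7.8% of all promoters, and the letters TATAAA, searched on the other strand as TTTATA, in 0 of the 7, against 13.6%. No GAGGAA match overlapped a TGANTCA match. A match describes letters and not a bound site. The 4 sequences below are those of C1qb, which differed most between psoas and EDL, of Itgam, which has 3 matches, and of Cd163 and Lyz2, which followed each other least across the libraries. They are written 5′ to 3′ on the strand of the gene, and capitals mark GAGGAA or TTCCTC. C1qb lies on the reverse strand at chr4:136886151-136886450, Itgam on the forward strand at chr7:128062390-128062689, Cd163 on the forward strand at chr6:124304401-124304700 and Lyz2 on the reverse strand at chr10:117282223-117282522.
C1qb: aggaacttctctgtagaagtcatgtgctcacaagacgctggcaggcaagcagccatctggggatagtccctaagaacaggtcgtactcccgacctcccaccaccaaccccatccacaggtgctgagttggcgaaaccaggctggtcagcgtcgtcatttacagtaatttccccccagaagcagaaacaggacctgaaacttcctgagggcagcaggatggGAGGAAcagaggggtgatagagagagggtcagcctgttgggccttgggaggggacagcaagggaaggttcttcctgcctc
Itgam: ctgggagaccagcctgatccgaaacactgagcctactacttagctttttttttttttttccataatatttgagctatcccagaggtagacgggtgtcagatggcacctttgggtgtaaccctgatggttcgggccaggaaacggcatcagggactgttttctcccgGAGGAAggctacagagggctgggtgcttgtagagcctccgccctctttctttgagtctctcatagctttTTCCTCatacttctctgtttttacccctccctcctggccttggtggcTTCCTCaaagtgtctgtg
Cd163: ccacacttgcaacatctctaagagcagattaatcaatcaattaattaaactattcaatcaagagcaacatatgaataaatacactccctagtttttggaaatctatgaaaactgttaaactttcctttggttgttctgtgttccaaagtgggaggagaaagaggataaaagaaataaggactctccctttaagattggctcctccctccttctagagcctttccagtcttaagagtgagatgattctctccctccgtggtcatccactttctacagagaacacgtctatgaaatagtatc
Lyz2: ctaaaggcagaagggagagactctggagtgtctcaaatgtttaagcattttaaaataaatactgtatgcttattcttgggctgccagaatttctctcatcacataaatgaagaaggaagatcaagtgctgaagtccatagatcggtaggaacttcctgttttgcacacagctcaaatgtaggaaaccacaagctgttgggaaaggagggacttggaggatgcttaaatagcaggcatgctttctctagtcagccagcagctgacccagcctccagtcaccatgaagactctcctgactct

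Total counts ran from 9114176 to 48835209 per library, and the lowest counts of macrophage genes in any library were 14 for Trem2, 25 for C1qb and 29 for Cd68, the genes with the largest counting error. Values are given as the deposited normalized counts, which are counts divided by 1 size factor per library. A gene was called different between muscles at an adjusted p under 0.01 with an absolute log2 fold change over 1 by edgeR (quasi-likelihood fit, p values adjusted after Benjamini and Hochberg over all 17069 genes), and every adjusted p below is of this test unless another is named. The libraries of a muscle are labelled as separate replicates, but fewer mice than libraries were used, and the labels do not tell which libraries come from 1 mouse.

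Per length, Lyz2 was the most abundant of the 10 genes and Trem2 the least. The mean level over the 13 libraries, in normalized counts per kilobase of annotated exon, was 3621 for Lyz2, 1186 for C1qa and 233 for Mrc1. C1qb, Csf1r, Adgre1 and Cd163 lay close together at 172, 147, 134 and 132. Cd68 (92.0), Itgam (44.9) and Trem2 (15.2) were lowest. The order of Lyz2 over C1qa, C1qa over Mrc1, Cd68 over Itgam and Itgam over Trem2 held in all 13 libraries. By contrast, C1qb was above Csf1r in 7 of 13 libraries and Adgre1 above Cd163 in 6 of 13, so these neighbours did not differ beyond their spread. Exon length covers every annotated transcript (for Trem2, 4946 bases), which lowers the level per length of genes with long rare transcripts.

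**Figure D1:**
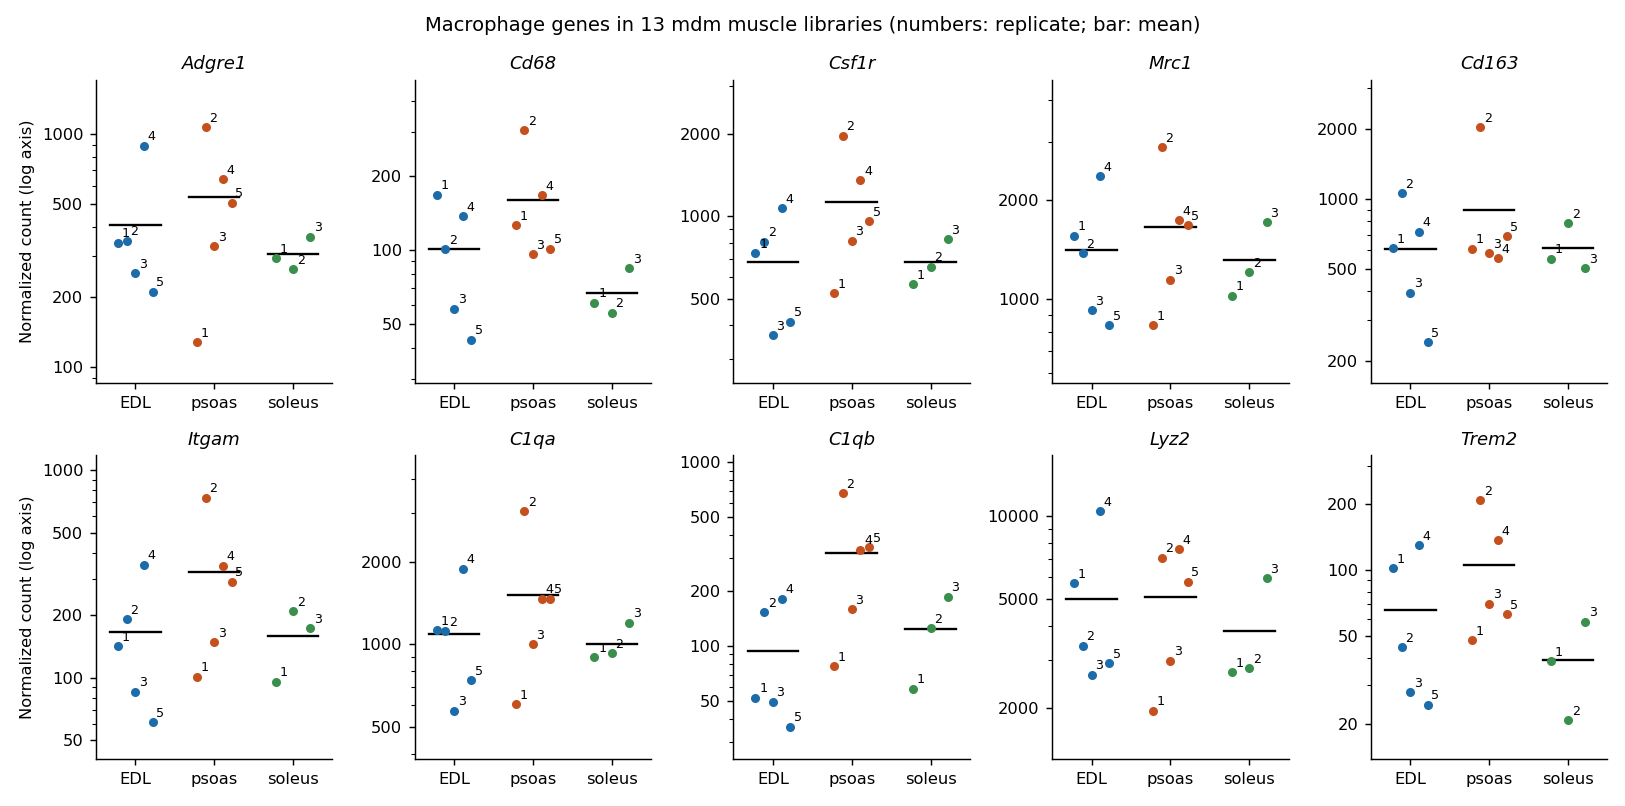
Normalized counts (log axis) of the 10 macrophage genes in each mdm library, by muscle. Points are libraries numbered by replicate, and the black bar is the mean of the muscle. Psoas replicate 2 is the highest library for every gene except Lyz2, whose highest library is EDL replicate 4.

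Adgre1, the classical surface marker of mouse macrophages, stood at 342, 348, 253, 891 and 211 normalized counts in EDL replicates 1 to 5. In psoas replicates 1 to 5 it stood at 128, 1069, 331, 639 and 508, and in soleus at 294, 263 and 363. The highest psoas library was 8.34-fold above the lowest, with EDL and soleus lying between them, and EDL replicate 4 stood far above the other EDL libraries. Psoas against EDL gave a log2 fold change of 0.39 ± 0.47 (SE), adjusted p = 0.599, and the interval of 2 SE either side ran from -0.54 to 1.32. Soleus against psoas gave a log2 fold change of -0.80 ± 0.55 (SE), adjusted p = 0.564.

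Cd68, in the lysosomes of phagocytes, was counted at 167, 101, 57.7, 137 and 43.3 in EDL, 126, 306, 96.2, 167 and 101 in psoas and 61.2, 55.7 and 84.2 in soleus. All 3 soleus libraries lay below all 5 psoas libraries. Cd68 was the only one of the 10 genes without overlap in this comparison, against 10.2% of all genes tested. The log2 fold change of soleus against psoas was -1.25 ± 0.47 (SE), with an unadjusted p = 0.0171 and an adjusted p = 0.284 in edgeR's test. Psoas against EDL gave a log2 fold change of 0.64 ± 0.38 (SE), adjusted p = 0.26, with overlapping libraries.

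Itgam, which pairs with Itgb2 to form CR3, varied 12.1-fold between libraries. EDL libraries held 141, 191, 85.6, 351 and 60.9, psoas libraries 101, 738, 148, 347 and 290.1 and soleus libraries 95.6, 209 and 174 normalized counts. Psoas replicate 2 stood above the highest EDL library, replicate 4, which in turn was level with psoas replicate 4. The psoas-to-EDL comparison gave a log2 fold change of 0.96 ± 0.52 (SE), adjusted p = 0.212. Exons of Itgam overlap those of Gm49368 on the same strand, a gene not analysed here, and reads in the shared stretch cannot be told apart.

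Csf1r, the receptor on which macrophages depend, was measured at 732, 806, 368, 1072 and 412 in EDL and 524, 1969.5, 814, 1357 and 958 in psoas. Soleus libraries held 566, 655 and 825, all inside the EDL range, and psoas replicates 2, 4 and 5 lay above every one of them. Psoas against EDL gave a log2 fold change of 0.73 ± 0.35 (SE), adjusted p = 0.157 and a 2 SE interval of 0.034 to 1.42. Although this interval leaves out 0, the unadjusted p of edgeR's test was 0.0538. Soleus against EDL was near 0, at 0.013 ± 0.40 (SE) with an interval of -0.79 to 0.81. Its exons overlap those of Hmgxb3 on the opposite strand, and the strand setting of the counting is not given in the sources used here.

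Trem2, a lipid-sensing receptor that signals through Tyrobp, had the lowest counts. EDL libraries stood at 102, 44.7, 27.9, 131 and 24.4, psoas libraries at 48.0, 209, 70.5, 137 and 63.0 and soleus libraries at 38.5, 20.7 and 58.5. Soleus replicates 1 and 2 lay below every psoas library, and soleus replicate 3 lay above psoas replicate 1 and below the other psoas libraries. Soleus against psoas gave the lowest log2 fold change of the 10 genes, -1.45 ± 0.63 (SE), with an unadjusted p = 0.0353 and an adjusted p = 0.354 in edgeR's test. Psoas against EDL gave a log2 fold change of 0.67 ± 0.51 (SE), adjusted p = 0.386.

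Of the scavenger receptors, Mrc1 was the steadiest of the 10 genes, with a 3.45-fold range over the 13 libraries. It was counted at 1560.5, 1381, 928, 2361 and 837 in EDL, 838, 2888, 1147, 1734 and 1680.2 in psoas and 1027, 1208 and 1712 in soleus, and the 3 muscles overlapped widely. Its psoas-to-EDL difference was a log2 fold change of 0.23 ± 0.33 (SE), adjusted p = 0.669, with an interval of -0.44 to 0.90. Cd163 stood at 614, 1062, 394, 722 and 241 in EDL, 611, 2044, 584, 554 and 692 in psoas and 552, 788 and 504 in soleus. Apart from psoas replicate 2, the psoas and soleus libraries lay between 504 and 788, while EDL spread both below and above them. Cd163 gave a log2 fold change of 0.56 ± 0.42 (SE), adjusted p = 0.379 for psoas against EDL, and 0.022 ± 0.48 (SE) for soleus against EDL.

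The C1q genes are neighbours on chromosome 4, reverse strand, of build GRCm38, C1qb at chr4:136880129-136886187, C1qc at chr4:136889804-136893065 and C1qa at chr4:136895917-136898803 in GENCODE mouse release 21. C1qa was measured at 1124, 1116, 573, 1883 and 738 in EDL, 606, 3046, 998, 1467 and 1467 in psoas and 896, 926 and 1197 in soleus. Its muscles overlapped, with a log2 fold change of 0.48 ± 0.38 (SE), adjusted p = 0.404 for psoas against EDL. C1qb, whose protein is needed in the same C1q molecule, was counted at 52.4, 152, 49.8, 181 and 36.5 in EDL, 77.8, 679, 158, 334 and 344 in psoas and 58.8, 125 and 186 in soleus. The psoas mean was 319 ± 232 (SD, n = 5) against 94.4 ± 67.0 (SD, n = 5) in EDL, and psoas replicates 2, 4 and 5 lay above every EDL and soleus library. C1qb showed the largest psoas-to-EDL difference of the 10 genes, 1.74 ± 0.57 (SE) on the log2 scale or 3.34-fold, with an unadjusted p = 0.00817 and an adjusted p = 0.0469 in edgeR's test, which did not pass the limit of 0.01. With EDL and psoas alone and the replicate number as a block, a fit chosen after the data were seen, C1qb was called (1.67, edgeR adjusted p = 0.00939), as it was by DESeq2 (1.74, adjusted p = 0.00927). Without psoas replicate 2, the difference was 1.26 with an edgeR adjusted p = 0.145.

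Lyz2, the lysozyme of macrophages and neutrophils, was the most abundant of the 10 genes and the one that differed least between psoas and EDL. EDL libraries held 5717, 3378, 2648, 10421 and 2924 normalized counts, psoas libraries 1962, 7069, 2981, 7590.1 and 5784 and soleus libraries 2709, 2799.5 and 5963. The highest library was EDL replicate 4 and the lowest psoas replicate 1. Psoas against EDL gave a log2 fold change of 0.024 ± 0.44 (SE), adjusted p = 0.977, and the interval of -0.85 to 0.90 includes the values of every other gene of the group except Itgam and C1qb. Lyz1, a near copy beside Lyz2 on chromosome 10, had 51.4 to 339.8 normalized counts, and how reads shared by both were counted is not given in the sources used here.

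None of the 10 genes was called in any of the 3 comparisons by edgeR's fit over all 13 libraries or by limma. C1qb in psoas against EDL was called by DESeq2 and by edgeR with the replicate block in EDL and psoas only. In psoas against EDL, all 10 log2 fold changes were above 0, against 51.3% of all genes tested, with a median of 0.60 for the group and 0.021 for all genes, and values from 0.02 (Lyz2) to 1.74 (C1qb). In this comparison 4.93% of all genes were called, 1 of the 10 genes had an unadjusted p under 0.05 (C1qb) against 33.3% of all genes, and 0 of the 10 had libraries that did not overlap against 13%. That count of 1 became 4 with the replicate block in EDL and psoas only, 5 with blocks of label code, 6 with libraries scaled by their totals, and 3 without EDL replicate 4, psoas replicate 1 or psoas replicate 3. The share of all genes under 0.05 is not given for these fits, so a rise beyond the background was not tested. All genes called went from 841 to 1270 with that replicate block and to 2282 by library totals. They also rose with blocks of label code, and numbered 318 to 803 without 1 library. In soleus against EDL, 3 log2 fold changes were above 0 against 47.4% of all genes, and the median was -0.10. When libraries were scaled by their totals, 6 were above 0 with a median of 0.24, but the median of all genes moved from -0.03 to 0.33. With blocks of label code, 0 were above 0 and the median was -0.38. Without single libraries the median ran from -0.28 (soleus replicate 3) to 0.12 (EDL replicate 4). No gene of the group had an unadjusted p under 0.05 against 15.1%, and 0 of the 10 did not overlap against 11%. For soleus against EDL 0.978% of all genes were called. In soleus against psoas, 0 of 10 were above 0 against 47.4% of all genes, the median was -0.76, and 2 genes had an unadjusted p under 0.05 (Cd68 and Trem2) against 12.7%. With blocks of label code the median was -1.18 and 8 genes had an unadjusted p under 0.05, and the number was 1 with the replicate block and 6 without psoas replicate 1. It was 0 without psoas replicate 2, where the median was -0.40, and 0 without soleus replicate 1 or 2. The share of all genes under 0.05 is not given for these fits either. All genes called in soleus against psoas went from 13 to 6 with blocks of label code. Only 0.0762% of all genes were called in soleus against psoas. The 10 genes vary together across libraries, so their shared direction is not 10 separate observations, and psoas libraries enter both the first and the last comparison.

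**Figure D2:**
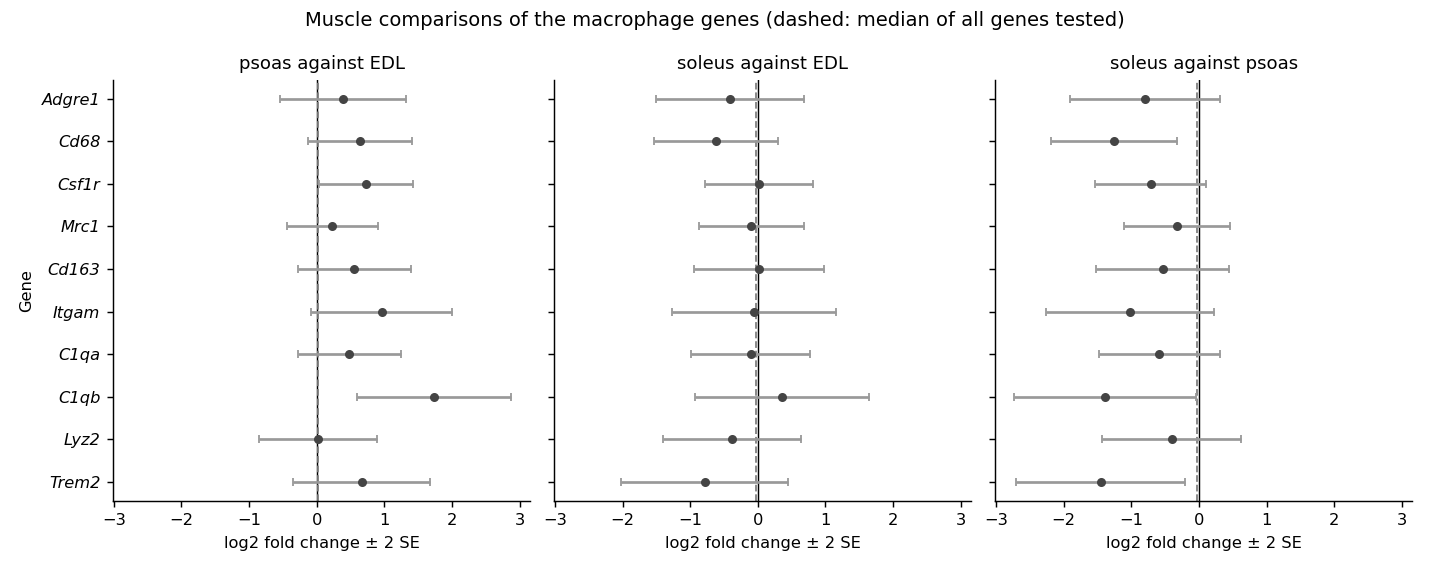
Log2 fold changes of the 10 macrophage genes in the 3 comparisons between mdm muscles, with bars of 2 standard errors either side. The standard errors were worked out from edgeR's log2 fold change and F statistic. The solid line is 0 and the dashed line the median of all genes tested. All points lie right of 0 for psoas against EDL and left of 0 for soleus against psoas. The bars of C1qb and Csf1r alone clear 0 in the first panel, though Csf1r had an unadjusted p = 0.0538 in edgeR's test.

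The size of the psoas difference depended on 1 library. Without psoas replicate 2, the median over the 10 genes went from 0.60 to 0.17, and Adgre1, Mrc1 and Lyz2 turned below 0 (-0.021, -0.058 and -0.12). For soleus against psoas, the median moved from -0.76 to -0.40 without this library, and Cd163 went to 0.013. Psoas replicate 2 was the highest of all 13 libraries for 9 of the 10 genes. It was also the highest in the summed fibroblast markers (7251 CPM against 2098 to 5375 in the others), in the summed B and plasma cell markers (69.2 CPM against 0.377 to 6.05) and in the summed mesothelial markers (60.5 CPM against 1.66 to 35.3). In this library Col3a1 (86308 normalized counts), Jchain (1074) and Msln (554) had the largest counts of these lists. Not every marker was highest in it. Dcn, at 20212, lay below every EDL library, and Wt1 (92.4) and Upk1b (92.9) lay below psoas replicate 1 (118 and 120). The part of these cell types in the result was not tested. EDL replicate 4 acted the other way: without it, the median for psoas against EDL was 0.82, and that for soleus against EDL went from -0.10 to 0.12.

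Replicate numbers 2 to 5 are shared by EDL and psoas libraries of 1 age and 1 label code, and number 1 by libraries of mice of different age and code. Within numbers 2, 3 and 5, all 10 genes were higher in psoas than in EDL, with median ratios of 2.88, 1.70 and 2.37. Within number 4, 4 genes were higher in psoas (Cd68, Csf1r, C1qb and Trem2) and 6 lower, with a median ratio of 0.885. Within number 1, in which the psoas mouse was 29 days old and the EDL mouse 38 days, 9 genes were lower in psoas and C1qb alone higher, with a median ratio of 0.627. C1qb was therefore the one gene that was higher in psoas in 5 of 5 same-numbered pairs, by 1.48, 4.46, 3.18, 1.84 and 9.42-fold. Whether a pair comes from 1 mouse is not given in the labels, and number 1 does not. Grouped by label code, the mean log2 difference of psoas and EDL was above 0 for all 10 genes within T4 (median 1.49), T5 (0.74) and T6 (0.64). T4 and T5 each hold 1 EDL and 1 psoas library, those of numbers 2 and 3, and so repeat these pairs. T6 averages numbers 4 and 5, and number 1 has no shared code. Soleus was below EDL for all 10 genes within T4 (2 soleus libraries and 1 of EDL, median -0.44) but above EDL for 9 of 10 within T6 (1 soleus library and 2 of EDL, median 0.20), and below psoas for all 10 within T4 (-1.82) and 9 of 10 within T6 (-0.54).

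**Figure D3:**
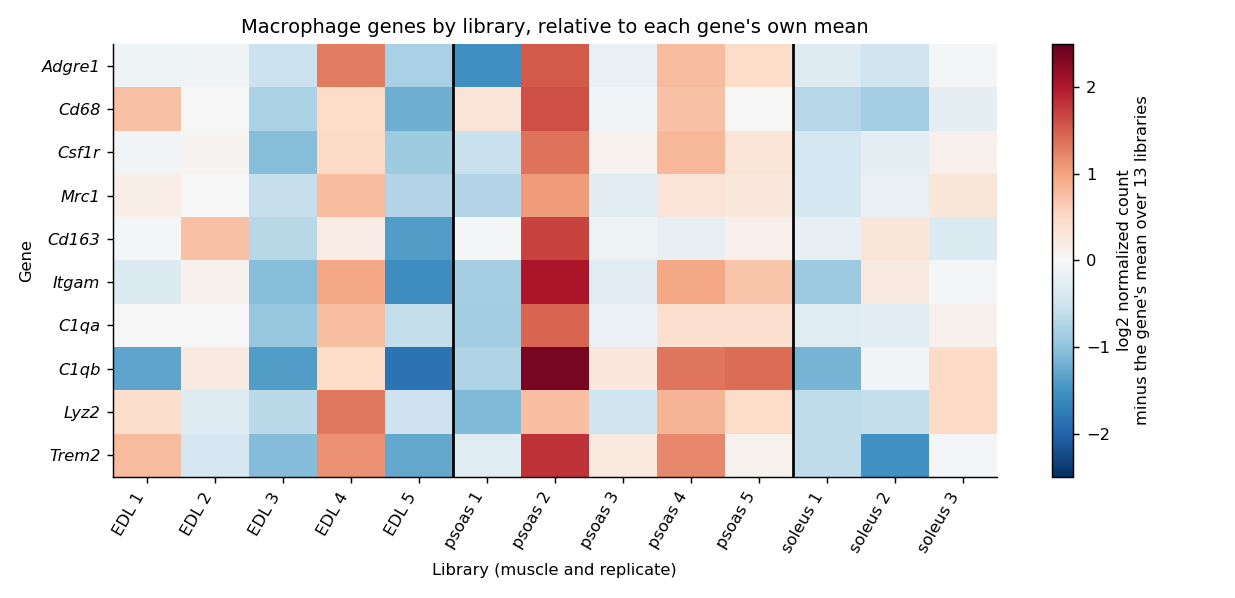
Log2 normalized count of each macrophage gene in each mdm library, minus the mean of that gene over the 13 libraries (red above, blue below; black lines separate the muscles). Psoas replicate 2 is red for all 10 genes and EDL replicates 3 and 5 are blue for all 10.

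The 10 genes varied together across libraries. The mean of their log2 CPM was 6.18 in psoas replicate 2, 5.38 in EDL replicate 4 and 5.34 in psoas replicate 4, and was lowest in EDL replicates 5 (3.55) and 3 (3.77) and in psoas replicate 1 (3.99). High and low libraries were thus found within 1 muscle, and the median share of the log2 variance that lay between the muscles was 15.3% for the 10 genes and 27.6% for all genes tested. It was 39.4% for C1qb, 35.4% for Cd68 and 28.7% for Trem2, but 4.0% for Mrc1 and 3.33% for Lyz2. Over the 13 libraries, Pearson's r of log2 CPM ran from 0.34 to 0.96 in the 45 pairs of the 10 genes (median 0.80), and from 0.35 to 0.97 (median 0.86) after the mean of each muscle was subtracted. The libraries share depth and tissue makeup, and some share a mouse, so these r are a description. The least alike pair was Cd163 and Lyz2. Cd163 also followed the mean of the group least (0.76), and Csf1r most (0.98).

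Outside the 10 genes, the median r with their mean was 0.004 over all genes tested, and 45 genes had an r over 0.9. The 10 most alike were Nckap1l (0.982), C1qc (0.975), Dock2 (0.966), Ncf1 (0.965), Cxcl16 (0.964), Man2b1 (0.958), Cd53 (0.954), Vav1 (0.950), Pirb (0.948) and Pld4 (0.944). Most of these are known from blood-derived cells: Nckap1l, Dock2 and Vav1 act on the actin cytoskeleton of leukocytes, Ncf1 is part of the phagocyte NADPH oxidase, Cd53 is a leukocyte tetraspanin and Man2b1 a lysosomal mannosidase. Gene by gene, the nearest was C1qc for both Mrc1 (0.980) and C1qa (0.980), Ncf1 for Itgam (0.976), Ctss for Trem2 (0.974), Nckap1l for Csf1r (0.965) and Tyrobp for Lyz2 (0.965). Ctsb was nearest to C1qb (0.957), Cd14 to Cd163 (0.946), C1qa to Adgre1 (0.942) and Trem2 to Cd68 (0.928).

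Ratios within a library, which do not depend on the scaling, showed how the makeup of the group varied. C1qb per 100 C1qa was 4.66, 13.7, 8.68, 9.60 and 4.95 in EDL replicates 1 to 5, and 12.8, 22.3, 15.9, 22.7 and 23.4 in psoas. It was 6.56, 13.5 and 15.5 in soleus. All psoas libraries except replicate 1 were above all EDL and soleus libraries. C1qc per 100 C1qa, the ratio of the third chain, stayed between 51.4 and 63.0 in EDL and psoas and between 48.1 and 67.4 in soleus. Cd163 per 100 Lyz2 did not follow the muscles: it was 6.93 to 12.0 in the 5 libraries of label code T6, from all 3 muscles, and 10.7 to 31.4 in the 8 others, with EDL replicate 1 (10.7) and psoas replicate 5 (12.0) overlapping. Cd163 per 100 Mrc1 split the same way, at 28.8 to 41.2 in T6 and 39.3 to 76.9 in the others. These ratios were chosen after the values were seen and were not tested, and the label code is not explained, so its part cannot be told apart from that of the mice that carry it.

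**Figure D4:**
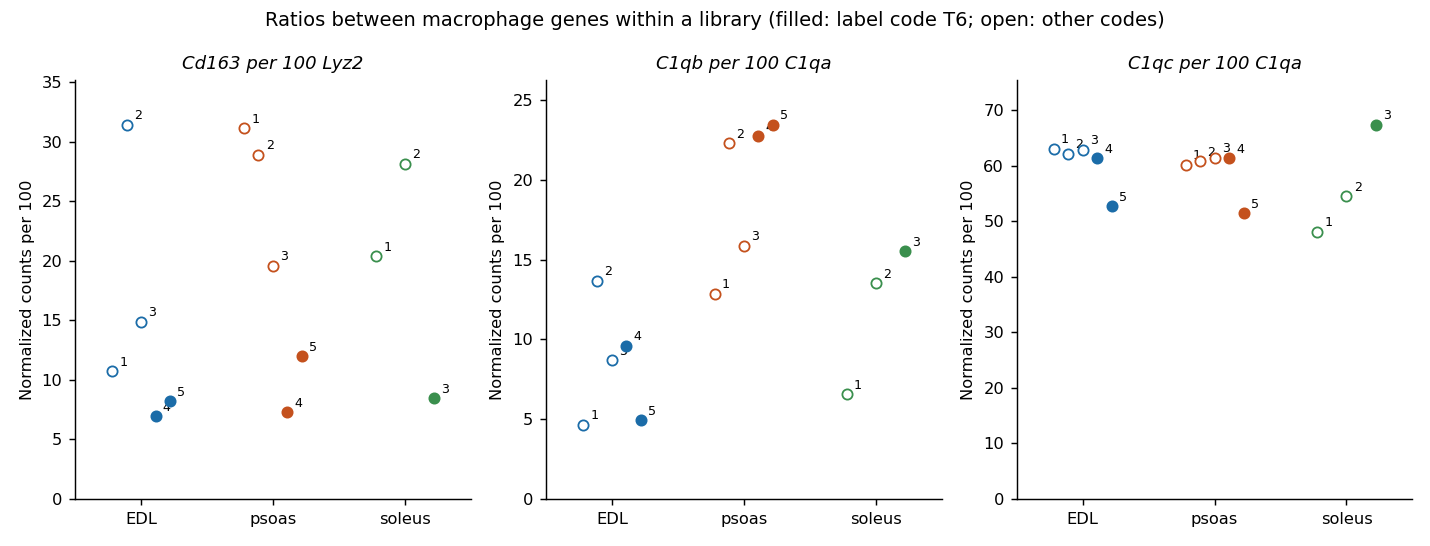
Normalized counts of Cd163 per 100 Lyz2, of C1qb per 100 C1qa and of C1qc per 100 C1qa in each mdm library, by muscle and numbered by replicate. Filled points are libraries of label code T6, which lie at 6.93 to 12.0 in the first panel, and the C1qb ratio reaches 23.4 in psoas against 13.7 in EDL.

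Other genes of the same pathways were read from lists chosen with earlier results of these data known, and they are described by counts and medians beside the median of all genes (0.021 for psoas against EDL). In that comparison 51.3% of all genes were above 0 and 4.93% were called. Genes of a list are not separate observations, and list medians without psoas replicate 2 were not taken. That library was the highest for Itgb2 (437 normalized counts) and Mpeg1 (1831), for example, but not for Ptprc. Itgb2 and Tyrobp each stand in more than 1 list. Of 18 genes of myeloid surface and signalling, all 18 were above 0 in psoas against EDL (median 0.56), and 1 was called, Cd74, the invariant chain of MHC class II. Cd74 stood at 106, 184, 73.7, 192 and 62.2 in EDL and 157, 1054, 316, 847 and 464 in psoas (2.18 ± 0.49 (SE), adjusted p = 0.0097), with psoas replicate 1 inside the EDL range. That call was near the limit and held in 8 of 24 alternatives. Of the 13 fits that each leave out 1 library, it held only in the fit without psoas replicate 1, and the highest adjusted p of the others was 0.0293. Cybb, the catalytic subunit of the NADPH oxidase, gave 1.39 ± 0.48 (SE), adjusted p = 0.0559 for psoas against EDL, and Itgb2, the partner of Itgam, gave -1.65 ± 0.57 (SE), adjusted p = 0.247 for soleus against psoas. Medians of this list were -0.29 for soleus against EDL and -0.88 for soleus against psoas.

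Among 11 CSF1 receptor ligands and myeloid transcription factors, 11 were above 0 in psoas against EDL (median 0.72), and Runx1, a transcription factor of blood and of denervated muscle, was called. Runx1 stood at 558, 718, 459.9, 348 and 333 in EDL and 1163, 1058, 1871, 1043 and 1228 in psoas, without overlap (1.39 ± 0.30 (SE), adjusted p = 0.00819), and was called in 13 of 24 alternatives. Of the 13 fits that each leave out 1 library, it was called without EDL replicate 2, soleus replicate 2 or soleus replicate 3, and the highest adjusted p of the others was 0.0239. The ligands and Spi1, named after their values were seen, were not called. Csf1 gave 0.72 with an adjusted p = 0.22, and Il34 gave 0.47 with an adjusted p = 0.464. Spi1, which codes for PU.1, was counted at 5.97 to 77.3 in EDL, 25.1 to 80.1 in psoas and 17.0 to 55.0 in soleus (psoas against EDL 0.72, adjusted p = 0.386). Cebpa gave 2.22 ± 0.51 (SE), adjusted p = 0.0275 for soleus against EDL and Maf -1.05 ± 0.30 (SE), adjusted p = 0.162 for soleus against psoas, and neither passed the limit. Cebpa passed it with DESeq2, with the replicate block and without EDL replicate 4. The summed adipocyte markers were also higher in soleus (559.5 to 954 CPM) than in EDL (71.5 to 329.7 CPM). Their part in the soleus values of Cebpa, and of Lpl below, was not tested. The list's medians were 0.41 for soleus against EDL and -0.62 for soleus against psoas.

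The complement list had the highest median of the related lists in psoas against EDL. Of 16 genes, 15 were above 0 against EDL (median 1.06), against 51.3% of all genes. An unadjusted p under 0.05 was found for 12, against 33.3%, and 2 were called higher, C2 and C3, where 4.93% of all genes were called. Cd55 alone was below 0 (-1.22 ± 0.31 (SE), adjusted p = 0.0153), and gave -1.84 ± 0.38 (SE), adjusted p = 0.0158 for soleus against EDL. C2, the protease of the classical C3 convertase, stood at 30.7, 23.0, 23.9, 30.5 and 18.9 in EDL and 97.4, 148, 65.0, 66.9 and 73.8 in psoas (1.82 ± 0.28 (SE), adjusted p = 0.00156), without overlap, and was called in all 24 alternatives. C3, the central complement component, stood at 569, 1901, 768, 2498 and 689.8 in EDL and 4269, 18551, 4338, 4946 and 5055 in psoas (2.53 ± 0.51 (SE), adjusted p = 0.00602), again without overlap, and was called in 18 of 24 alternatives. It was lost with age as a covariate, with EDL and psoas alone, and without EDL replicate 1, 3 or 5 or psoas replicate 2, with adjusted p values of up to 0.02. Cfd (adipsin, made mainly by fat cells) was called higher in soleus than in EDL (2.62 ± 0.45 (SE), adjusted p = 0.00699), with 42065, 26203 and 49058 in soleus against 2611, 6294, 5269.8, 14168 and 3706 in EDL, and held in 12 of 23 alternatives. It was lost with the replicate block (adjusted p = 0.0169), blocks of label code (adjusted p = 0.0231) or age as a covariate, with soleus and EDL alone, without any 1 soleus library and without EDL replicate 1, 2, 3 or 5, with adjusted p values of up to 0.0338. The adipocyte markers Adipoq and Retn were called in the same comparison, and the summed adipocyte markers were 559.5 to 954 CPM in soleus and 71.5 to 329.7 CPM in EDL, and their part in the result was not tested. C1qc gave 0.44 for psoas against EDL (adjusted p = 0.476), close to C1qa and not to C1qb. The list's medians were 0.16 for soleus against EDL and -0.62 for soleus against psoas.

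The remaining lists held no called gene in edgeR's fit over all 13 libraries. All 14 Trem2 partners and lipid-handling genes were above 0 in psoas against EDL (median 0.54), and the medians were 0.19 for soleus against EDL and -0.30 for soleus against psoas. The 3 genes of lowest p were Abca1, a cholesterol exporter (1.04 ± 0.29 (SE), adjusted p = 0.0246, psoas against EDL), Ctsb, a lysosomal protease (1.01 ± 0.34 (SE), adjusted p = 0.0524, psoas against EDL) and Lpl, which releases fatty acids from lipoproteins (1.71 ± 0.40 (SE), adjusted p = 0.0279, soleus against EDL). Abca1 was called with the replicate block in EDL and psoas only (1.02, edgeR adjusted p = 0.00735) and in 3 other alternatives of 24, Ctsb by library totals alone, and Lpl by library totals and DESeq2. Genes of resident-type macrophages were split, with 8 of 14 above 0 in psoas against EDL (median 0.18), and medians of 0.12 for soleus against EDL and -0.0037 for soleus against psoas. Here Stab1 gave 1.16 ± 0.40 (SE), adjusted p = 0.0582 and Gas6 -0.43 ± 0.24 (SE), adjusted p = 0.233 for psoas against EDL, where Stab1 was called with blocks of label code alone (1.46, edgeR adjusted p = 0.00724), and Cbr2 gave -0.81 ± 0.34 (SE), adjusted p = 0.261 for soleus against EDL. Of 12 genes of recruited monocytes and activation, 9 were tested, and 6 were above 0 in psoas against EDL (median 0.44, with -0.10 and -0.49 for soleus against EDL and psoas). Chil3 was high in 2 libraries, psoas replicates 2 (271) and 5 (297), and between 0 and 33.9 in the 11 others (-4.70 ± 1.42 (SE), adjusted p = 0.176, soleus against psoas). Plac8 gave 1.08 ± 0.40 (SE), adjusted p = 0.0754 for psoas against EDL and Ptgs2 -1.57 ± 0.72 (SE), adjusted p = 0.316 for soleus against EDL.

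**Figure D5:**
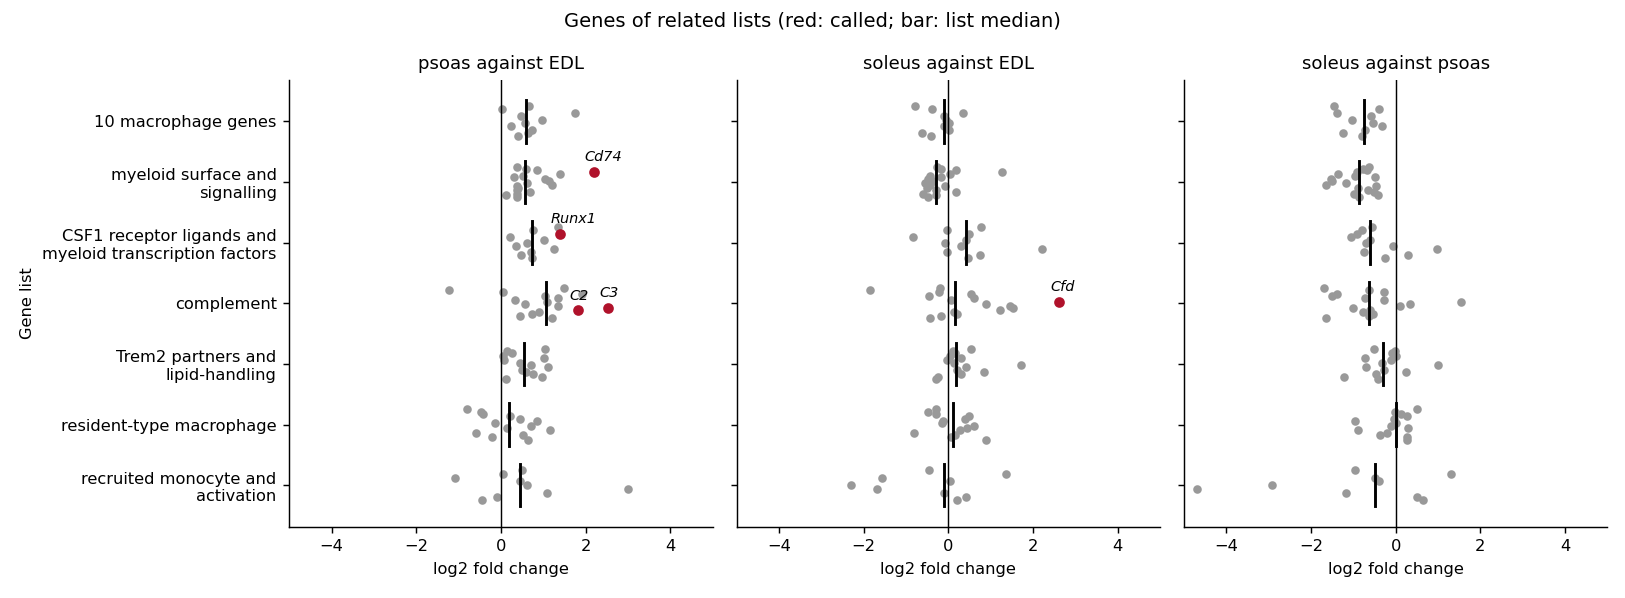
Log2 fold changes of the 10 macrophage genes and of 6 related gene lists in the 3 comparisons between mdm muscles. Each point is a gene, red points are called and named, and black bars are list medians, of which complement has the highest (1.06) in psoas against EDL.

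Markers of other cell types differed between the same libraries. The mesothelial markers Msln, Upk3b, Lrrn4, Wt1 and Upk1b were called higher in psoas than in EDL, 5 of 5, with a summed level of 11.9 to 60.5 CPM in psoas, 1.66 to 5.80 CPM in EDL and 2.5 to 7.16 CPM in soleus, and Upk3b was at 0 in 4 of the 5 EDL libraries. Of the Schwann cell markers, the myelin gene Mbp was called higher in psoas, at 1228 to 9696 normalized counts in psoas against 317 to 798 in EDL. Of the lymphocyte markers, 4 genes were tested, and Cd4 and Ms4a1 were called higher in psoas; the summed T and NK cell level (Cd4 alone) was 0.969 to 2.56 CPM in psoas and 0.118 to 0.543 CPM in EDL. Cd4 is also found on myeloid cells. Neutrophil markers, 7 of 12 tested and 0 called, summed to 18.3 to 47.5 CPM in EDL, 23.4 to 175 CPM in psoas and 9.95 to 24.6 CPM in soleus. S100a8 and S100a9 stood at 905 and 1215 normalized counts in psoas replicate 5 and Retnlg at 489 in EDL replicate 4. Of the 7, 5 were above 0 in psoas against EDL, while Cxcr2 (-0.75) and Retnlg (-0.68) were below 0. Cxcr2 was the largest of these markers in EDL replicates 1 to 3, at 386, 334 and 643 normalized counts. The neutrophil genes Ly6g, Camp, Ngp, Mpo and Elane were not analysed here. Red blood cell markers reached 389 CPM in psoas replicate 4 and 341 CPM in psoas replicate 5. Fibroblast markers (8 of 8 tested, 0 called) ran from 2098 to 5090 CPM in EDL, 2739 to 7251 CPM in psoas and 3425 to 5132 CPM in soleus, and endothelial, dendritic, and mast cell and eosinophil lists held 0 called genes. Of all genes, 4.93% were called in psoas against EDL, 0.978% in soleus against EDL and 0.0762% in soleus against psoas, so 0 in such short lists says little. Of 5 mast cell and eosinophil genes tested, 3 (Cpa3, Mcpt4 and Cma1) had an unadjusted p under 0.05 in edgeR's test for psoas against EDL, against 33.3% of all genes. The same 3 had it for soleus against psoas, against 12.7%. They were lowest in psoas by mean. Muscle fibre markers were present in every library, at 103925 to 195142 CPM in EDL, 59595 to 114833 CPM in psoas and 60148 to 86876 CPM in soleus. The list of 10 markers also holds Myod1 and Pax7, which are genes of myogenic cells and not of fibre structure. Ckm (-1.67) and Mylpf (-1.60) were called lower in psoas than in EDL on the log2 scale. Myod1 (1.58) was called higher in psoas than in EDL, and Myh1 was called lower in soleus than in EDL (-3.80). The part of these cell types in the values of the macrophage genes and of the related lists was not tested.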

How the data were processed

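RNA of whole EDL, psoas and soleus muscles of mdm mice was extracted with a fibrous tissue kit, made into stranded total RNA libraries and sequenced in paired ends on an Illumina NextSeq. The authors trimmed libraries of low base quality with Trimmomatic 0.32, aligned reads to GRCm38.p4 with TopHat2 2.1.1, counted reads per gene with GenomicAlignments (overlap mode and strand setting are not given in the sources used here), removed genes of low counts and deposited whole-number counts for 17924 genes. The authors also deposited a normalized signal, in which each count is scaled by its library's size factor from DESeq2 (0.5023 to 2.417, set with libraries not used here). Counts over signals gave 1 constant in each library, to within 5.22e-15 of it. Columns left unmapped numbered 0, as did entries naming no gene. Symbols were found for 17833 genes in GENCODE mouse release 21.

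Each library was put in its group by its title. The members, gene lists and named genes were chosen with earlier results of these data known. Named besides the members were, per related list, the called genes and the up to 3 of lowest unadjusted p over the comparisons, and the 10 genes most alike the members' mean. The test took the 17069 genes that reached a normalized count of 10 in 3 or more libraries, in 1 edgeR 4.0.16 quasi-likelihood fit (R 4.3.3) of all 13 libraries with TMM scaling and muscle as the only factor. Calls needed an absolute log2 fold change over 1 with an adjusted p below 0.01. The study's sequencing run is not named in the labels and was not a covariate. Alternatives were other scalings, no filter, DESeq2 1.42.0, limma 3.58.1 on log2(normalized count + 1), blocks of replicate number or label code, age, 2 muscles alone and each library left out. Log2 CPM had a prior count of 2. On simulated data for psoas against EDL, with 200 of 17069 genes changed 8-fold, edgeR recovered 97%, DESeq2 98%, limma 95.5% and edgeR with the replicate block 96%, with 3, 15, 4 and 4 false calls. Changed genes were not drawn from those of lowest mean level, and libraries were simulated as independent. Recovery at 8-fold does not tell how often smaller differences, such as those of the macrophage genes, would be called, and pairing was not simulated. None of 23 library pairs of 1 muscle was a duplicate (smallest chi-square per degree of freedom 56.5).

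Whether the replicate numbers pair EDL with psoas was checked once. Deviations of same-numbered libraries from their muscle means correlated by 0.407, 0.370, 0.316, 0.289 and 0.371, all above 0.1, and the numbers were taken as pairs. The highest value, 0.407, is that of replicate 1, which joins mice of different age. The check therefore cannot show that same-numbered libraries share a mouse. Soleus numbers were not taken as pairs, though the replicate block over all 13 libraries used them. Soleus replicate 3 correlated by -0.162 with EDL and -0.302 with psoas. Soleus replicates 1 and 2 correlated by 0.115 and 0.421 with EDL and by 0.159 and 0.141 with psoas. Replicate 2 of EDL and of soleus came from mice of 38 and 36 days, so a high value does not show a shared mouse. Tables came from pandas 2.3.3 and numpy 2.4.6 under Python 3.11.15, and figures from matplotlib 3.10.9. Some marker genes of the cell type lists are not reported here.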

Additional observations from a re-analysis of the deposited data

Results flagged for a closer look

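Adgre1 in EDL replicate 4, at 890.9 normalized counts, lay further above the next EDL library than Dixon's test allows at the 95% level (a gap of 0.798 of the range of the 5 libraries, against a limit of 0.71). Cd163 in psoas replicate 2, at 2044 normalized counts, stood apart from the other psoas libraries in the same way, with a gap of 0.907 of the range. The test was run on 20 groups of 5 libraries (10 genes in EDL and psoas), in which about 1 in 20 is flagged by chance, and 2 were flagged.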

How the results depend on the processing

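Over 700 refits of single macrophage genes, 658 kept direction and side of the limit, 2 newly passed it (C1qb) and 40 changed direction, and over 424 of the other named genes the numbers were 368, 11 newly called, 44 no longer called and 1 turned. Called macrophage genes in psoas against EDL numbered 0, and 1 with DESeq2 or with the replicate block in EDL and psoas only. In every fit without 1 library they numbered 0 in each comparison, and the replicate block over all 13 libraries changed no call of a macrophage gene. Scaling by library totals moved the median of all genes for psoas against EDL from 0.02 to 0.54, and that of the macrophage genes from 0.60 to 1.17. All genes called in psoas against EDL numbered 841 (49.4% higher in psoas), and 2282 (92.9%) by library totals, 1586 with DESeq2, 510 with age, 1270 with the replicate block in EDL and psoas only, and 318 to 803 without 1 library. For soleus against EDL they numbered 167 (54.5% higher in soleus), and 305 (77.7%) by library totals, 633 (42.6%) with DESeq2, 86 (36.0%) with the label code, 49 with age and 19 to 184 without 1 library. For soleus against psoas they numbered 13 (92.3% higher in soleus), and 171 (55.6%) with DESeq2, 20 (75.0%) with limma, 6 (66.7%) with the label code, 8 with 2 muscles alone and 3 to 21 without 1 library. The cause of these changes was not tested.

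Log2 fold changes that turned direction reached -0.38 (Cd163, blocks of label code) and 0.39 (Itgam, without EDL replicate 4), both in soleus against EDL. For soleus against EDL, library totals gave 0.25 for Mrc1, 0.27 for Itgam and 0.23 for C1qa, and 0.072 for Gas6 in psoas against EDL. RLE size factors and DESeq2 gave -0.0027 and -0.0014 for Csf1r, and limma 0.14 for Itgam. The replicate block gave 0.047 for Mrc1, -0.056 for Cd163, 0.19 for Itgam and 0.12 for C1qa, the label code -0.17 for Csf1r, -0.38 for Cd163 and -0.096 for C1qb, and age 0.051 for Mrc1, 0.17 for Itgam and 0.057 for C1qa. Without 1 library, soleus against EDL ran from -0.57 to 0.079 for Adgre1, -0.14 to 0.23 for Csf1r, -0.32 to 0.16 for Mrc1, -0.20 to 0.34 for Cd163, -0.31 to 0.39 for Itgam, -0.26 to 0.18 for C1qa, -0.045 to 0.71 for C1qb and -0.84 to 0.062 for Lyz2. Psoas against EDL ran from -0.021 to 0.88 for Adgre1, -0.058 to 0.49 for Mrc1 and -0.15 to 0.46 for Lyz2, and soleus against psoas from -0.77 to 0.013 for Cd163.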
